A study of Mus musculus with 12 samples.

Results

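Wfdc3 and Trim36 are the mouse homologs of 2 DUX4-FL target genes that serve as readouts of DUX4-FL activity in this mouse, and they were examined here as 2 of the 37748 genes of an RNA-seq table. The members were found by gene name. The name Wfdc3 stands on 2 identifiers, and the one with the higher total count (ENSMUSG00000076434, 18165 counts over all libraries) was used, since the other (ENSMUSG00000039951) had 17.0 counts in all. Gastrocnemius muscle of 12 mice, aged 13 weeks, was sequenced as 1 poly(A) library per mouse in 4 groups of 3. Control mice carried ACTA1-MCM/+, a transgene for a tamoxifen-inducible Cre (MerCreMer) driven in skeletal muscle, and the FLExD mice carried FLExDUX4/+, the human DUX4-fl transgene at Rosa26 that needs Cre to be expressed. Neither of these groups received tamoxifen (TMX). The labels describe the FLExD samples as mild pathology, although they list a single transgene and no TMX. These mice were grouped by strain and treatment. The paper lists mice 1358, 1367 and 1378 as FLExD/+, a group it keeps apart from its mild model with both transgenes. Both transgenes (FLExDUX4/+;MCM/+) were present in the mice of the other two groups. The moderate model received 1 intraperitoneal injection of TMX at 5 mg/kg, and the severe model received 2 injections of 10 mg/kg on consecutive days. Muscles of these models were taken on day 9. No group received TMX without FLExDUX4, so the drug and the recombined transgene cannot be told apart in any comparison with the models.

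DUX4 is a double homeobox transcription factor of the early embryo that is silent in healthy adult muscle, and its misexpression there causes facioscapulohumeral muscular dystrophy. Its mRNA is scarce in muscle, so the mRNA of genes that it activates is read in its place. Wfdc3 encodes a small protein with whey acidic protein (WAP) domains, a fold shared with secreted protease inhibitors. Trim36 encodes a RING-type E3 ubiquitin ligase of the tripartite motif family that binds microtubules. Acta1 encodes skeletal muscle alpha-actin, the main actin of adult fibers, and was used here as the measure of fiber RNA.

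Total counts ranged from 23796902 to 29136403 per mouse, at which 3 counts correspond to between 0.0676 and 0.155 CPM. CPM are counts per 1000000 on library sizes adjusted by TMM, a method that scales libraries so that most genes do not differ. A gene was called when the adjusted p of edgeR's quasi-likelihood test was under 0.05 and the log2 fold change was at least 0.5 in size. No row of the table is named DUX4, and the mouse Dux row held at most 1 count, so the transgene itself was not analysed here. Esr1, whose ligand-binding domain is part of MerCreMer, was read for the driver. It had 1555 to 2087 counts per 1000000 Acta1 counts in the FLExD mice, against 16027 to 37489 in the 9 mice labelled as carrying ACTA1-MCM. In CPM, where Acta1 is not the scale, Esr1 was 27.5 to 37.9 in FLExD and 35.2 to 37.4 in severe mice, which overlapped. It was 95.9 to 124 in moderate and 422 to 819 in control mice. Mean Acta1 was 18042 CPM in FLExD and 1842 in severe mice, so the ratio does not check the driver in severe mice. As a share of all counts, Esr1 was 0.00195 to 0.00288% in FLExD and 0.00603 to 0.00656% in severe mice. In TPM, which also accounts for length, it was 4.87 to 8.78 and 38.6 to 45.1. These 2 groups thus overlapped in CPM and were apart by share of counts and by TPM.

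Wfdc3 lies on chromosome 2 (mm10/GRCm38, chr2:164731180-164745931, minus strand) and has 3 transcripts in GENCODE M21. Wfdc3-201 and Wfdc3-202 are protein coding, with 911 and 726 bases, and share exons 2 to 4. Their first exons differ: the start of Wfdc3-202 is at position 164745931, and that of Wfdc3-201 is 2619 bases downstream at 164743312. The coding sequence of Wfdc3-202 (144 bases without the stop codon) is the in-frame end of that of Wfdc3-201 (390 bases), and it is shown because these bases belong to both coding transcripts. Capitals mark the ATG at which Wfdc3-202 starts to be read. The bases upstream of the Wfdc3-201 start are shown because Wfdc3 had the larger response of the 2 genes. They come from the RefSeq promoter window of GRCm38.p6, and the rest of that window matched the first bases of Wfdc3-201.

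Wfdc3 coding stretch (spliced, chr2:164731475-164732137, minus strand): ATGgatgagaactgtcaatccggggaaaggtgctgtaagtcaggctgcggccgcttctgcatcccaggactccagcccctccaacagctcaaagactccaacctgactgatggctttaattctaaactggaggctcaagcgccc
Wfdc3 upstream of Wfdc3-201 (chr2:164743313-164743517, minus strand): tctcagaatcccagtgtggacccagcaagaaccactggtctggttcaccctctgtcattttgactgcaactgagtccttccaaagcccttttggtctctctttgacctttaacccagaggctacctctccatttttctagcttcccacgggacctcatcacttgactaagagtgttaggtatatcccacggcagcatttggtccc

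DUX4 is known to bind a double homeodomain site. The form TAATNNAAT of the core of that site was searched on both strands of the RefSeq window of Wfdc3 and was not found. It was held by 1066 of 32851 windows of the same length (3.24%), and no other form of the site was searched. No such window starts at the Wfdc3-202 exon in the table used here, so its upstream bases were not searched.

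Wfdc3 was close to absent from the muscles of both single transgenic groups and abundant in both models. The control mice had 3.0, 8.0 and 3.0 counts, and the FLExD mice had 4.0, 1.0 and 8.0. The moderate model had 2910, 2005 and 2083 counts, and the severe model had 2776, 3574 and 4790. Every model mouse was thus above every single transgenic mouse, with no value between 8 and 2005 counts. All 12 values were whole numbers within 1e-06, so the estimates held no fractional share of a read for this gene. On the TMM scale, the level was 0.228 ± 0.137 CPM (SD, n = 3) in control, 0.211 ± 0.169 in FLExD, 76.3 ± 13.4 in moderate and 87.5 ± 26.7 in severe mice. In TPM, which accounts for length, its mean ranked 19032 among 37748 genes in control mice, 466 in moderate mice and 309 in severe mice.

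The rise of Wfdc3 over control was 8.35 on the log2 scale in the moderate model (SE 0.39, 327-fold, 95% interval 180 to 594, adjusted p = 1.6e-08 by edgeR). It was 8.55 in the severe model (SE 0.39, 375-fold, 207 to 680, adjusted p = 2.5e-09). These contrasts share the 3 control libraries. The denominator is small, 14 counts over 3 mice, and an exact binomial interval for counting error alone put the moderate fold at 335 (199 to 612) and the severe fold at 380 (226 to 695). Against FLExD, the log2 differences were 8.46 (SE 0.40, adjusted p = 1.7e-08) and 8.66 (SE 0.40, adjusted p = 2.6e-09). Wfdc3 was placed 30 of 4072 genes called higher in the moderate model than control by log2 fold change, and 25 of 5480 in the severe model. Calls were common in these muscles: 24.4% of the 16679 genes tested were called higher in moderate than control mice and 32.9% in severe than control mice, and 24.3% and 33.0% against FLExD. A call in itself was therefore common.

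**Figure D1:**
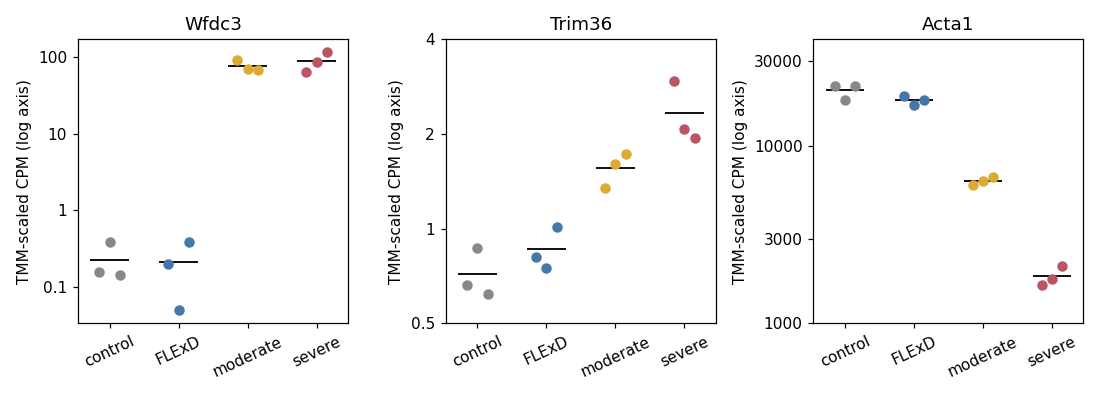
Level of Wfdc3, Trim36 and Acta1 in each of 12 mice, in TMM-scaled CPM on log axes that differ between panels; each point is 1 mouse and each line the mean of 3. Wfdc3 stands at 62.6 CPM or above in the 6 model mice and at 0.386 or below in the others. Mean Trim36 is 0.715 CPM in control, 0.859 in FLExD, 1.55 in moderate and 2.32 in severe mice, and Acta1 is lower in each model.

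Trim36 lies on chromosome 18 (mm10, chr18:46165300-46212607, minus strand), with 3 annotated transcripts, of which Trim36-201 and Trim36-202 (4546 and 2553 bases) are protein coding. It was detected in every mouse at a low level and was higher in both models. The control mice had 12.77, 17.95 and 13.04 expected counts, and the FLExD mice had 16.54, 15.15 and 21.01. The moderate model had 42.6, 46.27 and 52.56, and the severe model 130.94, 87.83 and 80.12. None of the 12 values was whole, so part of these estimates came from reads that also matched elsewhere. The levels were 0.715 ± 0.132 CPM (SD, n = 3) in control, 0.859 ± 0.137 in FLExD, 1.55 ± 0.189 in moderate and 2.32 ± 0.552 in severe mice. The control and FLExD ranges overlapped, and the moderate and severe ranges overlapped neither with these nor with each other.

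Trim36 rose by 1.11 on the log2 scale in the moderate model over control (SE 0.26, 2.16-fold, 95% interval 1.47 to 3.17, adjusted p = 0.00240 by edgeR). In the severe model it rose by 1.69 (SE 0.25, 3.22-fold, 2.22 to 4.65, adjusted p = 2.8e-05). Against FLExD the differences were 0.84 (SE 0.25, adjusted p = 0.0113) and 1.42 (SE 0.24, adjusted p = 1.0e-04). Without FLExD mouse 1367 the moderate difference from FLExD was 0.72 with an adjusted p of 0.0576. Among genes called higher than control, Trim36 was placed 2411 of 4072 by fold in the moderate and 2516 of 5480 in the severe model, so its rise was of a size common in these muscles. Separation of the mice was common too: 32.6% of genes had every moderate mouse above every control mouse and 40.0% every severe mouse above every control mouse, with 33.1% and 40.4% against FLExD.

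Neither gene differed detectably between the FLExD mice, grouped here by their listed strain, and control mice. The log2 difference between FLExD and control was -0.11 for Wfdc3 (SE 0.87, 95% interval -2.01 to 1.79, adjusted p = 1.00) and 0.26 for Trim36 (SE 0.29, -0.36 to 0.88, adjusted p = 1.00). Of all genes tested, 0.00600% (1 gene) were called in either direction. The interval for Wfdc3 is wide because 13 counts were set against 14, and leaving out control mouse 1246 or FLExD mouse 1367 turned its sign, to 0.50 and 0.35.

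Between the models, Trim36 was called on the TMM scale and Wfdc3 was not. Wfdc3 did not differ detectably between the models: the severe mice had 62.6, 84.3 and 116 CPM and the moderate mice 91.8, 69.1 and 68.0, so the ranges overlapped. The log2 difference, severe minus moderate, was 0.20 (SE 0.22, 95% interval -0.28 to 0.68, adjusted p = 0.479 by edgeR), and without severe mouse 1079 it was -0.06. Trim36 was called higher in the severe model, at 2.95, 2.07 and 1.94 CPM against 1.34, 1.60 and 1.72, with no overlap. Its difference was 0.58 (SE 0.21, 0.12 to 1.03, adjusted p = 0.0366). Of the genes tested, 17.6% were called higher in severe than moderate mice, and 30.5% had every severe mouse above every moderate mouse. The Trim36 call was lost with 1 mouse fewer in 3 cases. The difference was 0.48 without moderate mouse 1236 (adjusted p = 0.131) and 0.58, as with all mice, without moderate mouse 1308 (adjusted p = 0.0747). It was 0.36 without severe mouse 1047 (adjusted p = 0.210), which had the highest Trim36 level. DESeq2 gave 0.59 with an adjusted p of 0.0590, and a fit of these 2 groups alone gave 0.59 with 0.0505. The difference in response between the 2 genes was itself tested as the ratio of Trim36 to Wfdc3, which was 14.6, 23.1 and 25.2 Trim36 counts per 1000 Wfdc3 counts in moderate mice and 47.2, 24.6 and 16.7 in severe mice. These ranges overlapped, and the exact two-sided permutation p was 0.50. The smallest p this test can give with 3 mice against 3 is 0.10, so it could not have passed the threshold, and whether the 2 genes respond differently to dose is not settled by it.

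The difference between the models depended on what RNA it was measured against. With library size alone, Wfdc3 was 0.88 higher in severe than moderate mice on the log2 scale (SE 0.22, adjusted p = 0.00284) and Trim36 1.29 higher (SE 0.23, adjusted p = 1.7e-04). With Rpl37, a ribosomal protein gene used as a reference transcript in the study, Wfdc3 differed by -0.03 (SE 0.19, adjusted p = 0.911) and Trim36 by 0.35 (SE 0.25, adjusted p = 0.281). The scales themselves moved apart, since the median of all genes tested was 0.02 with TMM, 0.72 with library size alone, -0.21 with Rpl37 and 1.81 with Acta1. TMM factors ran from 0.706 to 0.724 in control and from 1.69 to 1.87 in severe mice. A scale factor moves every gene alike, so the distance of each gene from the median gene is nearly fixed across these 4 scales, at 0.18 for Wfdc3 and 0.56 for Trim36 with TMM. On limma's log2(TPM + 1) scale, which is not of that form, the distance was 0.40 for Wfdc3 and 0.08 for Trim36. Mean Trim36 was 0.497 TPM in moderate and 1.24 in severe mice, near the 1 that this scale adds. With log2(TPM + 0.1) the distance was 0.23 for Wfdc3 and 0.48 for Trim36, the same order as with TMM.

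**Figure D2:**
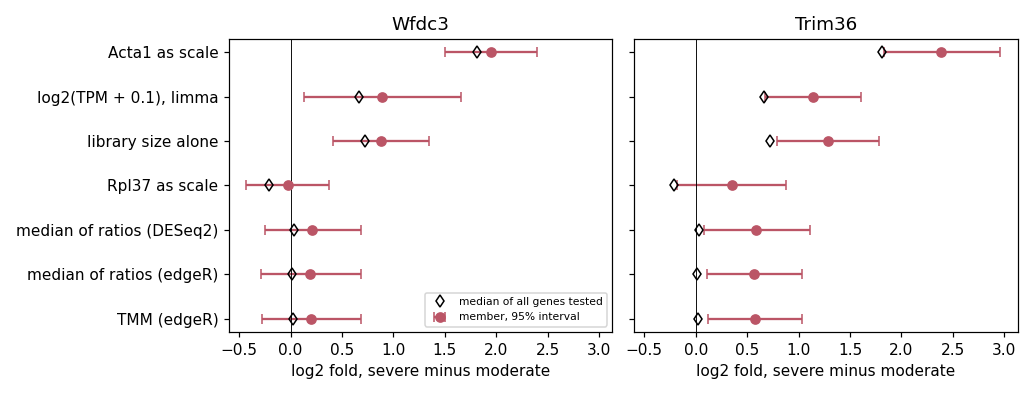
Log2 fold change from moderate to severe for Wfdc3 and Trim36 under 7 ways of scaling the libraries, with 95% intervals, and the median of all genes tested as open diamonds. Both genes shift with the diamonds, from -0.03 and 0.35 with Rpl37 as the scale to 1.95 and 2.39 with Acta1.

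Fiber RNA fell with dose. Acta1 had 417829, 376100 and 460778 expected counts in control mice and 388427, 340070 and 376559 in FLExD mice. It had 189744, 183886 and 204980 in the moderate and 72547, 75571 and 87295 in the severe model. The 4 sets of TMM-scaled levels followed the same order, with a log2 change from control of -1.70 in the moderate (SE 0.17, adjusted p = 1.2e-06) and -3.48 in the severe model (SE 0.18, adjusted p = 7.6e-10). As a share of all counts, Acta1 was 1.30 to 1.58% in control, 0.677 to 0.709% in moderate and 0.305 to 0.357% in severe mice. That is a smaller fall than on the TMM scale, so its size depends on the scale. The fall was shared by adult fiber genes: 11 of 12 listed ones were called lower in the moderate and 12 of 12 in the severe model, where 17.0% and 27.9% of all genes tested were called lower, with medians of -1.41 and -3.51 beside 0.04 and 0.08 over all genes. In whole muscle, fewer fibers and less of these mRNAs per fiber cannot be told apart.

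Set against Acta1 in each mouse, both readouts were higher in the severe model. Wfdc3 had 15336, 10904 and 10162 counts per 1000000 Acta1 counts in moderate mice and 38265, 47293 and 54871 in severe mice, so every severe mouse was above every moderate mouse. Of all genes tested, 92.9% were separated in this way per Acta1, so the separation is not a result about Wfdc3. The difference was 1.96 on the log2 scale, 3.88-fold, with an exact two-sided permutation p of 0.10, the smallest that 3 mice against 3 can give. With the mean of the 12 adult fiber genes as the reference it was 2.33, and with Ckm, muscle creatine kinase, it was 2.70. The control and FLExD mice had between 2.94 and 21.3 Wfdc3 counts per 1000000 Acta1 counts.

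Trim36 per Acta1 was higher in the moderate and highest in the severe model. Its counts per 1000000 Acta1 counts were 30.6, 47.7 and 28.3 in control mice and 42.6, 44.5 and 55.8 in FLExD mice, which overlapped. The moderate mice had 225, 252 and 256, and the severe mice 1805, 1162 and 918. Moderate mice were 2.82 above control on the log2 scale (7.05-fold), severe mice 5.17 above control (36.0-fold) and severe mice 2.35 above moderate mice (5.10-fold), each with groups that did not overlap and an exact two-sided permutation p of 0.10. Per Acta1, 91.8% of all genes tested had every moderate mouse above every control mouse, and 97.1% every severe mouse above every control mouse. Since Acta1 itself fell, these ratios combine the change of the readout with that of its denominator: the median of all genes tested was 1.81 higher in severe than moderate mice on the Acta1 scale, of the same order as the 1.95 of Wfdc3 in that fit (SE 0.21, adjusted p = 2.1e-07 by edgeR) and under the 2.39 of Trim36 (SE 0.27, adjusted p = 5.5e-08).

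**Figure D3:**
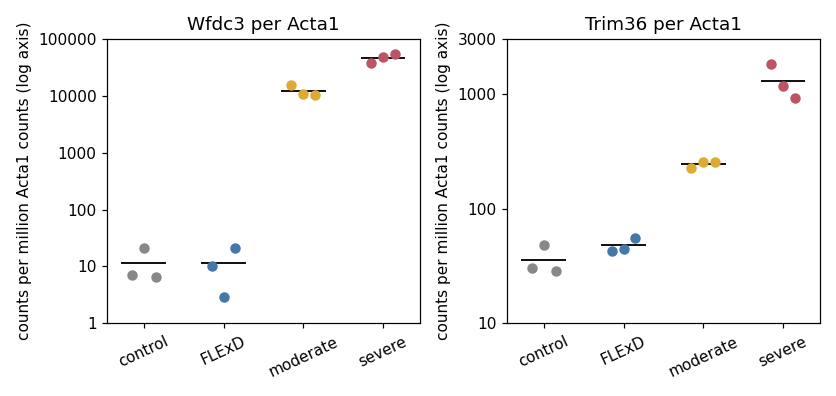
Wfdc3 and Trim36 counts per 1000000 Acta1 counts in each of 12 mice, on log axes; each point is 1 mouse and each line the mean of 3. Severe mice lie above moderate mice in both panels, with Wfdc3 at 38265 to 54871 against 10162 to 15336.

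Within each model, the mice were ordered oppositely by the 2 readouts, a pattern noticed after the values were seen and not tested. Among moderate mice, mouse 1236 had the most Wfdc3 (91.8 CPM) and the least Trim36 (1.34 CPM), and mouse 1331 the least Wfdc3 and the most Trim36. Among severe mice, mouse 1079 had the most Wfdc3 (116 CPM) and the least Trim36 (1.94 CPM), and mouse 1047 the reverse (62.6 and 2.95 CPM). Several steps in these orders are small. Trim36 had 42.6, 46.27 and 52.56 expected counts in moderate mice, and 87.83 and 80.12 in severe mice 1066 and 1079. Wfdc3 was at 69.1 and 68.0 CPM in moderate mice 1308 and 1331. Acta1 followed the Trim36 order in the moderate model and the Wfdc3 order in the severe model.

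**Figure D4:**
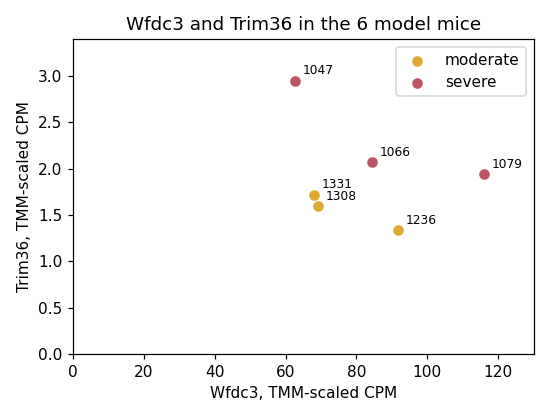
Trim36 against Wfdc3 in the 6 model mice, both in TMM-scaled CPM on linear axes, labelled by mouse. Within each model the mouse highest in Wfdc3 is lowest in Trim36, as for severe mouse 1079 (116 and 1.94 CPM). This order was not tested, and several steps in it are small.

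The ratio of counts to TPM gives the length that the authors' estimates used for a gene. It was scaled here with 411 genes that have 1 transcript in GENCODE M21 and at least 200 counts in every library. In single libraries, the 25th and 75th percentiles of those genes lay between 0.776 and 0.800 and between 1.11 and 1.17 times their annotated length, so the method is coarse. Wfdc3 came to 760, 765 and 746 bases in moderate mice and 741, 751 and 761 in severe mice, nearer to Wfdc3-202 than to Wfdc3-201 in each of the 6 mice, although the spread of the method covers both. Trim36 came to 4527, 4468 and 4603 bases in moderate mice and 4500, 4345 and 4624 in severe mice, close to Trim36-201. The severe minus moderate difference in log2 length, against the median of all genes, was -0.06 for Wfdc3 and -0.07 for Trim36, each with an exact permutation p of 0.10. Against Acta1 it was -0.01 for each, with p of 0.50 and 0.80. The single transgenic mice were left out because their counts were too few.

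**Figure D5:**
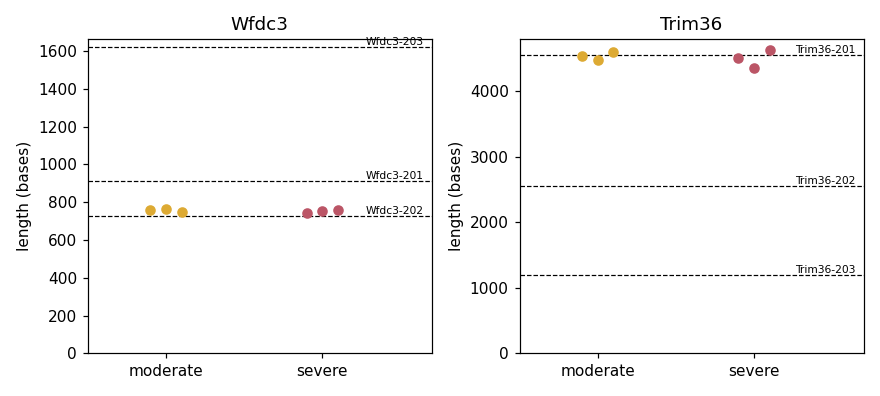
Length implied by the deposited counts and TPM for Wfdc3 and Trim36 in the 6 model mice, in bases, with the lengths of annotated transcripts as dashed lines. Wfdc3 lies between 741 and 765 bases and Trim36 between 4345 and 4624 bases in both models.

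The neighbours of Wfdc3 changed far less. Dnttip1, which starts 52 bases beyond the Wfdc3-202 start on the opposite strand, differed from control by 0.34 in the moderate model (SE 0.12, adjusted p = 0.0245, under the fold threshold) and rose by 0.57 in the severe model (SE 0.12, adjusted p = 5.0e-04). Pigt, the nearest tested gene on the other side at 222879 bases, rose by 0.78 and 0.72 on the log2 scale. Around Trim36, Pggt1b at 22744 bases did not pass the test in either model (-0.20 and -0.17), and Kcnn2, a potassium channel gene at 479276 bases, fell by 0.68 and 1.50. No gene in GENCODE M21 overlaps Wfdc3, and 1700018A14Rik, which overlaps Trim36 on the opposite strand, was not tested.

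The genes most like Wfdc3 in level were sought by Pearson's r over the 12 libraries, in log2(CPM + 0.5). They were 2310042E22Rik (0.999), Slc25a24 (0.996), Duxbl (0.996), Cep192 (0.996) and Agtr2 (0.995). Duxbl is itself a mouse double homeobox gene, at 0.117 CPM in control, 5.86 in moderate and 6.79 in severe mice. Agtr2, an angiotensin receptor, went from 0.147 to 59.2 and 64.0 CPM. All 5 were near one level in both models, with log2 differences of severe minus moderate between -0.17 and 0.21. The genes most like Trim36 were Tnfrsf22 (0.981), Mfsd12 (0.978), Runx2 (0.975), Ermap (0.974) and Ap3s1 (0.974), with differences between 0.33 and 1.35. By Spearman's rho 1 of 5 genes of each set was among the top 5 again. These values describe 12 points that share the 4 groups. Choosing genes by r selects for a profile like that of the member, so the values carry no test.

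Among other genes known to respond to DUX4 or its mouse counterpart, most were too low to test. Of 39 listed genes, 30 were in the table and 5 were tested. The 1 called higher of these 5 is a share near the 24.4% and 32.9% over all genes. It was Agtr2, at 8.61 in the moderate (SE 0.38, adjusted p = 7.2e-09) and 8.72 in the severe model (SE 0.38, adjusted p = 1.0e-09). The 5 Zscan4 rows, cleavage-stage genes, averaged at most 0.00536 CPM in moderate mice and 0 in severe mice. The 4 other tested genes, of the Trim43 and Pramef families, included 1 call, Trim43c at -1.09 in the severe model (SE 0.38, adjusted p = 0.0196). Sum levels of the listed genes were 51.5 to 86.7 CPM in moderate and 66.0 to 90.4 in severe mice, against 12.6 to 13.1 in control, of which Agtr2 made up 59.2 and 64.0 on average in the models.

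The WAP family moved in both directions. Of 22 WAP domain genes, 21 were in the table and 6 tested, and the low filter passes genes that are high in 1 group only. With Wfdc3, the macrophage-enriched Wfdc17 was called higher in both models (3.72, SE 0.32, and 5.30, SE 0.30, adjusted p = 4.4e-07 and 2.2e-09), and Slpi in the severe model. Wfdc1 changed by -1.66 and -4.58, and Wfikkn2, an inhibitor of myostatin, by -1.76 and -3.35, both called in both models. Of 5 other TRIM genes of the subfamily of Trim36, 3 passed the filter. These 3 were called higher in both models, beside 24.4% and 32.9% of all genes, with medians of 1.72 and 2.28. Trim46 had at most 5.00 counts in a control and 3.00 in a FLExD mouse, so it passed the filter through the models. The share called is therefore not a result about the subfamily. The microtubule-binding Mid2 rose by 2.77 and 2.61, its relative Mid1 by 1.05 and 1.12 and Trim46 by 1.72 and 2.28, beside the 1.11 and 1.69 of Trim36. Of 5 TRIM genes known in adult muscle, 2 were called lower in moderate mice and 4 in severe mice, beside 17.0% and 27.9% of all genes, among them Trim54 (-1.35 and -3.11) and Trim63 in the severe model (-1.68), the muscle E3 ligase MuRF1.

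Markers of other cells changed in both directions. All 5 tested macrophage genes were called higher in both models, with a summed level of 345 to 443 CPM in moderate and 763 to 854 in severe mice against 59.3 to 70.3 in control. Regenerating fiber and proliferation genes (5 of 5 each) were also called higher in both models, with summed levels of 361 to 644 and 67.5 to 83.5 CPM in moderate mice and 1341 to 1870 and 220 to 279 in severe mice. Satellite cell genes were called higher in 3 of 5 in the moderate and 4 of 5 in the severe model. Neutrophil genes were called higher in 2 of 4 and 3 of 4, with Ly6g at 0 in every library. The calls in all of these lists stand beside 24.4% of all genes called higher in moderate mice and 32.9% in severe mice. Endothelial genes were called lower in 3 of 5 and 5 of 5, beside 17.0% and 27.9% of all genes. Fibro-adipogenic progenitor genes were called higher in 3 of 5 and 2 of 5, beside 24.4% and 32.9% of all genes, and 1 of 5, Dcn, was called lower in severe mice (-0.79, SE 0.12, adjusted p = 2.9e-05). No lymphocyte or male germ cell gene passed the filter, with summed levels of at most 0.517 and 0.132 CPM in the moderate and 0.459 and 0.113 CPM in the severe model. Of the sex chromosome genes Xist alone passed, and no Y-linked gene did. The part of these cells in the Wfdc3 and Trim36 changes was not tested.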

How the data were processed

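RNA-seq libraries of 12 gastrocnemius muscles, 3 per group, were grouped by their labels. The authors mapped trimmed single-end reads with RSEM 1.2.4, modified to call Bowtie, to a merged mouse annotation of mm10, mapped the unaligned reads with TopHat 2.0.8b, and deposited expected counts, which are not normalized, and TPM. In the TPM table, 164142 of 164417 entries with 0 counts have a TPM above 0.

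Expected counts were rounded and tested in 1 fit of 4 groups with the robust quasi-likelihood test of edgeR 4.0.16 in R 4.3.3, after filterByExpr and with TMM factors, with Benjamini-Hochberg adjustment over 16679 genes. Ratios per mouse were compared with exact two-sided permutation tests (scipy 1.17.1). Intervals are 95% and, for count ratios, exact binomial, covering counting error only. The scripts were tested on simulated data. Annotation was GENCODE M21 (35982 of 37748 identifiers matched), promoter windows were RefSeq's, and figures were drawn with matplotlib 3.10.9.

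Named genes are the members, Acta1, Rpl37, Esr1, 5 genes most correlated with each member, nearest tested neighbours, and up to 4 genes per list with the highest CPM among those called in a model. The members and lists were chosen with earlier results of these data known. Alternatives were median-of-ratios factors, library size alone, Acta1 or Rpl37 as the size factor, DESeq2 1.42.0, limma 3.58.1 on log2(TPM + 1) and log2(TPM + 0.1), no filter, at least 10 counts in every library, only the 2 groups compared, other fiber references, and each mouse left out. The labels do not say whether the mice came from separate litters. Mild-model libraries are not analysed here.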

Additional observations from a re-analysis of the deposited data

How the results depend on the processing

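The rise of Wfdc3 in both models over control and over FLExD, and that of Trim36 in the severe model over both, stayed called under every alternative run. On limma's log2(TPM + 1) scale the moderate differences of Trim36 from control and FLExD were 0.32 and 0.29, under the fold threshold; the pseudocount exceeds the TPM of Trim36 there. Severe minus moderate for Wfdc3 was called with library size alone (0.88), Acta1 as the scale (1.95), and limma on log2(TPM + 1) and log2(TPM + 0.1) (0.89 each), and was -0.03 with Rpl37. For Trim36 that call was lost with Rpl37 (0.35), DESeq2 (0.59) and the 2 groups alone (0.59). FLExD minus control for Wfdc3 was 0.06 with Acta1 as the scale. With 1 mouse left out, Wfdc3 ran from -0.88 to 0.50 for FLExD minus control and from -0.06 to 0.39 for severe minus moderate, and Trim36 from 0.72 to 0.95 for moderate minus FLExD and from 0.36 to 0.69 for severe minus moderate. The severe minus moderate difference of the log2 ratio of Trim36 to Wfdc3 ran from -0.01 to 0.74. The cause of these changes was not tested beyond the shift of the median gene. At least 10 counts in every library removes Wfdc3, so it has no value there. Ratios per Acta1 kept their direction with the other references, and the smallest p of their test is 0.10. Of the 5 genes most like each member, 1 was shared under Spearman's rho, and with library size alone 2 for Wfdc3 and 1 for Trim36. No paired analysis was possible because the groups share no replicate numbers. Trim36, at 12.77 to 130.94 expected counts per library, is limited by depth, as is Wfdc3 in the single transgenic mice.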
